A study of Oncorhynchus mykiss with 48 samples.

Results

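The comparison described here is that of juvenile livers of the second generation (F2) at 112 days post fertilization (dpf), between the lineage in which founder eggs had taken up about 4 ng of bisphenol A each (BPA4) and the vehicle lineage (Control). Its members are the 4 BPA4 and 4 Control fish of that time point, 8 of the 48 fish sequenced, and genes whose status read HIDATA (too many fragments for the counting tool) in any fish of the time point were left out. The study incubated unfertilized rainbow trout (Oncorhynchus mykiss) eggs in ovarian fluid with 0, 3 or 30 mg/l bisphenol A, which gave 0, 4 or 40 ng per egg (Control, BPA4 and BPA40). These eggs, fertilized with milt of unexposed males, became the F1 fish. The F2 fish came from eggs of the F1 females crossed to unexposed males, so neither the F2 fish nor the eggs they grew from were put into bisphenol A. The study did not detect the compound in those F1 eggs. It states, however, that the germ cells from which they arose had been exposed while the F1 females were embryos. All 3 F2 lineages were kept in clean water on the same feed, and their livers were taken after food had been withheld. The F2 fish of each lineage were reared in a single tank, so a tank and a lineage cannot be told apart. Sample titles give 140 dpf for these fish, whereas their age label and the study give 112 dpf, which is used here. The strain, the sex of the fish and the number of F1 mothers behind each fish were not used.

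Bisphenol A is a monomer of polycarbonate plastics and epoxy resins and a weak ligand of oestrogen receptors. In egg-laying vertebrates a mother passes lipids, hormones, messenger RNAs and lipophilic contaminants to her young in the yolk. The liver of a juvenile trout makes most plasma proteins, stores glycogen and lipid, and directs amino acids to glucose or to growth. In a mature female it also makes the yolk precursor vitellogenin under oestrogen control. The question of the comparison is whether the livers of untreated young of the females that grew from exposed eggs carry another set of messenger RNAs than those of the control lineage.

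The deposited values are fragments per gene, and the 46585 gene identifiers of the table (codes of the first published trout genome) matched 0 entries of the gene table used here. The results are therefore given for classes of genes (by abundance, by length, by direction and by what they did at other ages), with 4 single genes under their identifiers. Liver markers, markers of blood, pancreas or muscle, and pathway lists could not be applied for the same reason, and the labelled tissue was not checked against markers. The mixture of cell types in a liver piece is unknown, and in bulk tissue fewer cells of a type and less RNA per cell cannot be told apart.

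For the Control fish, the fragments assigned to genes (called depth here) were 11482299, 12475266, 10913305 and 10446269 for replicates 0 to 3. In the BPA4 fish they were 11446678, 6788947, 11759871 and 10874524. One BPA4 fish, replicate 1, thus had the fewest fragments of the 8. The study lists the reads sequenced per library, and no BPA4 library of this age fell that far below the others. This depth therefore does not stand for reads sequenced. The same fish had the fewest genes with at least 5 fragments, 14642 against 18323 to 19569 in the other BPA4 fish and 17418 to 20457 in the Control fish. Its profile also lay farthest from the rest: over the 16315 genes tested, the root mean square difference in log2 CPM (fragments of a gene relative to the scaled size of its library) to its own group averaged 1.51, against 1.00 to 1.04 for the other BPA4 fish and 0.75 to 0.86 for the Control fish. Since this library stood apart, the main counts and several other results are given with and without it. Differences in mean depth and in mean genes detected did not pass an exact two-sided permutation test over the 70 assignments of 4 and 4 fish (p = 0.514 and p = 0.629, adjusted p = 0.629 for each over 4 measures, n = 4 per group), in which the smallest possible p is 0.0286. No pair of fish within a group agreed within sampling noise, with a chi-square per degree of freedom of 34.7 to 142.

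**Figure D1:**
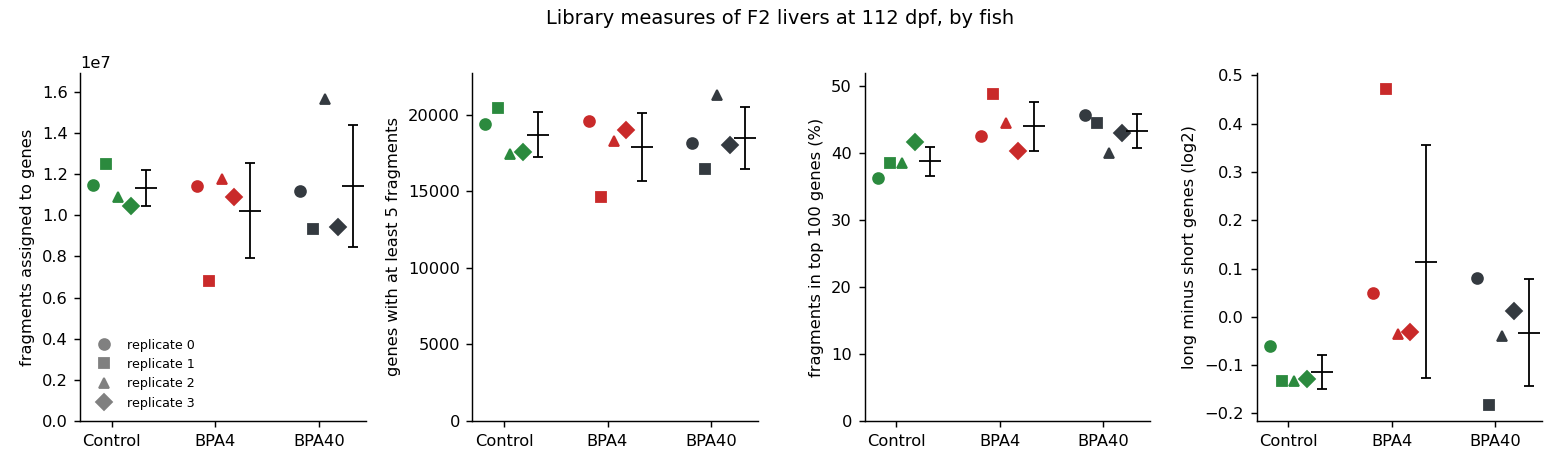
Measures of each F2 library at 112 dpf, by lineage: fragments assigned to genes, genes with at least 5 fragments, the percentage of fragments in the 100 most abundant genes, and the median of long genes minus that of short genes (log2). Symbols are single fish by replicate number, and the horizontal marks with bars are means and SDs (n = 4). BPA4 replicate 1 (red square) is lowest in fragments and genes, at 6788947 and 14642, and highest in the other panels, at 48.9% and 0.47.

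No gene passed the threshold between BPA4 and Control: at an adjusted p under 0.05 from the edgeR quasi-likelihood test, 0 of 16315 genes (0%) were called, and the smallest adjusted p was 0.197. At an unadjusted p under 0.05 there were 1682 genes (10.3% of those tested), of which 948 (5.81%) were higher and 734 (4.5%) lower in BPA4. At an unadjusted p under 0.01 there were 392 genes, and at 0.001 there were 51. Without BPA4 replicate 1, 1283 of 16911 genes were at an unadjusted p under 0.05 in edgeR, 704 higher and 579 lower. DESeq2 on the same 16315 genes called 116, of which 83 were higher and 33 lower in BPA4. All 116 were at an unadjusted p under 0.05 in edgeR. In 105 of them the 4 BPA4 fish lay apart from the 4 Control fish, beside 6.67% of all genes tested. Both follow largely from the choice of these genes on the same counts, and neither is a separate check of the calls. DESeq2 called 56 without BPA4 replicate 1, and 43 of these were among the 116. The limma-trend test on log2(FPKM + 1), with another filter, called 0 of 24484 genes and gave 2058 at an unadjusted p under 0.05. The number of called genes therefore depended on the test, from 0 to 116, on the same 12 fish.

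The genes at an unadjusted p under 0.05 are described here as the genes that leaned to one lineage, since none passed the adjusted threshold in edgeR. Of these, 56.4% were higher in BPA4, but that split depended on scaling. Trimmed mean of M-values scaling (TMM), which sets libraries level on the bulk of their genes, gave the 948 higher and 734 lower genes. Scaling by library size alone gave 516 higher and 893 lower genes (36.6% higher). It also moved the median log2 fold change of all 16315 genes from 0.02 to -0.15, so directions below are relative to the bulk of genes. Limma-trend on FPKM, which differs in test, filter and genes tested as well as in scaling, gave 886 higher and 1172 lower genes (43.1% higher). Among the genes that leaned higher, the median log2 fold change was 1.15 (interquartile range 0.84 to 1.57), and 586 (61.8%) differed by more than 2-fold. Among those that leaned lower it was -0.89 (-1.18 to -0.69), and 272 (37.1%) differed by more than 2-fold. The higher genes held 12.6% of the TMM-scaled mean CPM of the 8 fish, summed over the genes tested, and the lower genes held 2.94%.

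Seen fish by fish, all 4 BPA4 values lay above all 4 Control values in 473 genes (2.9%) and below them in 616 genes (3.78%), so the groups did not overlap in 1089 genes (6.67%). With library size alone these numbers were 284 above and 759 below. Leaving out BPA4 replicate 1 gave 895 above and 846 below among 16911 genes, a count that has to grow since 3 fish separate from 4 more easily than 4 from 4. Complete absence in one lineage was rare. In 9 genes there was no fragment in any Control fish and at least 1 in every BPA4 fish, and in 36 genes the reverse held. At a minimum of 5 fragments in every fish of the other lineage there were 1 and 0 such genes, and none of these genes had enough fragments to enter the test. No gene with at least 10 fragments in every fish of one lineage was at 0 throughout the other. These are raw fragments, not scaled to depth, and BPA4 replicate 1 had the fewest fragments. With BPA40 in place of BPA4, the numbers at a minimum of 1 fragment were 13 and 19. The part of depth in these numbers was not tested.

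**Figure D2:**
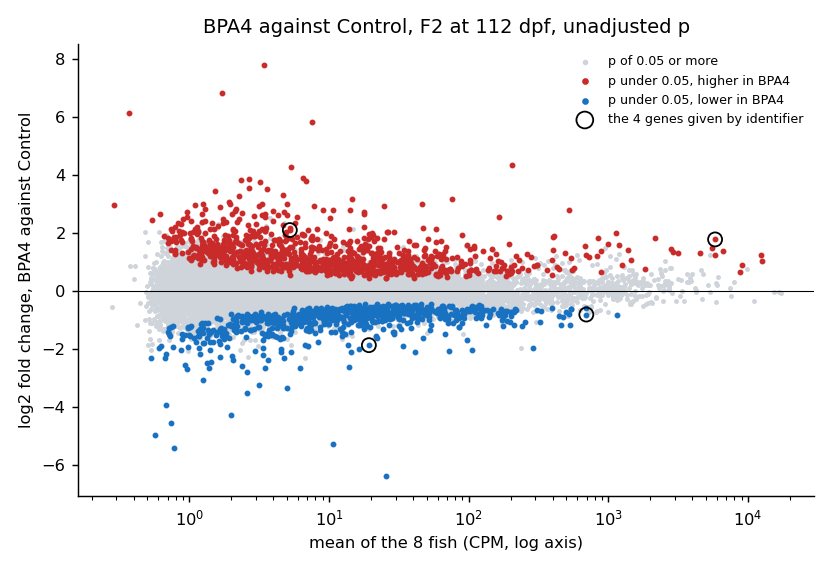
Log2 fold change of BPA4 against Control for each of the 16315 genes tested (edgeR), against the mean CPM of the 8 fish on a log axis. Red and blue points are the 948 higher and 734 lower genes at an unadjusted p under 0.05, grey points the rest, and rings mark the 4 genes given by identifier. Fold changes spread most widely at low abundance, and no gene passed the adjusted threshold.

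A pair of genes in each direction was singled out by a rule on p and abundance. GSONMT00055484001 had the smallest p of the genes higher in BPA4 whose groups did not overlap. Its level in the Control fish was 1.5, 1.85, 2.66 and 1.86 CPM, and in the BPA4 fish 8.42, 12.8, 7.16 and 5.73 CPM. Every BPA4 fish was thus above every Control fish, with means of 8.52 ± 3.05 and 1.97 ± 0.49 CPM (SD, n = 4). The edgeR log2 fold change was 2.1 (standard error 0.35, 95% interval 1.36 to 2.84), or 4.29-fold, with an adjusted p of 0.197. Leaving out BPA4 replicate 1 gave 1.85 (adjusted p = 0.21 in edgeR). The BPA40 fish had 8.84, 7.44, 4.31 and 7.64 CPM, all above the Control fish. The gene was chosen on these same Control fish, so this is no independent result. The log2 fold change between BPA4 and BPA40 was 0.27 (adjusted p = 1 in edgeR, 95% interval -0.43 to 0.96). At 365 dpf the same gene was at 17.8 ± 6.2 CPM in F2 Control and 14.1 ± 2.9 CPM in F2 BPA4 fish (SD, n = 4), both above the 1.97 CPM of the F2 Control juveniles. The CPM were filtered and scaled within each time point, so levels of different time points are not on a common scale.

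GSONMT00052017001 was the most abundant gene at an unadjusted p under 0.01 that was higher in BPA4 without overlap. The Control fish had 2486, 2923, 1905 and 3176 CPM and the BPA4 fish 4358, 12739, 11693 and 7200 CPM. Group means were 2623 ± 557 and 8997 ± 3917 CPM (SD, n = 4), and the 2 highest BPA4 fish were replicates 1 and 2. The log2 fold change was 1.78 (standard error 0.36, 95% interval 1.00 to 2.56, adjusted p = 0.239 in edgeR) and 1.56 without BPA4 replicate 1. The BPA40 fish had 3500, 5604, 4003 and 5706 CPM, between most fish of the other lineages. In F1 juveniles at 140 dpf the gene stood at 7566 ± 1451 CPM in Control and 8080 ± 2651 CPM in BPA4 fish (SD, n = 4), where the log2 fold change was 0.09 (95% interval -0.58 to 0.77).

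Of the genes that leaned lower, GSONMT00046253001 had the smallest p. The Control fish had 25.6, 38.6, 34.3 and 23.0 CPM, and the BPA4 fish 12.3, 4.33, 6.97 and 9.41 CPM. The lowest Control fish was thus well above the highest BPA4 fish. The log2 fold change was -1.86 (standard error 0.31, 95% interval -2.53 to -1.19), or 3.64-fold lower, with an adjusted p of 0.197 in edgeR, and it was -1.67 without BPA4 replicate 1. The BPA40 fish had 12.3, 14.7, 18.9 and 11.7 CPM, all below the Control fish. Here too the choice of the gene rested on these Control fish, so this is no independent result. The log2 fold change between BPA4 and Control in other fish was 0.35 at F1 140 dpf, 0.09 at F1 365 dpf and 0.18 at F2 365 dpf, each with an interval that included 0.

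GSONMT00000416001 was the most abundant gene at an unadjusted p under 0.01 that was lower in BPA4 without overlap. Its Control values were close together, at 859, 968, 847 and 868 CPM, and the BPA4 fish had 613, 449, 521 and 438 CPM. The groups did not overlap, and the log2 fold change was -0.81 (standard error 0.25, 95% interval -1.35 to -0.26, adjusted p = 0.409 in edgeR). Without BPA4 replicate 1 it was -0.76. The BPA40 fish spanned both ranges, from 549 to 1016 CPM. DESeq2 called the other 3 of the 4 genes, and this gene was not called by either tool. All 4 kept their direction in each of the other settings tried, which is no independent support. They were chosen in the same fish for groups that did not overlap.

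**Figure D3:**
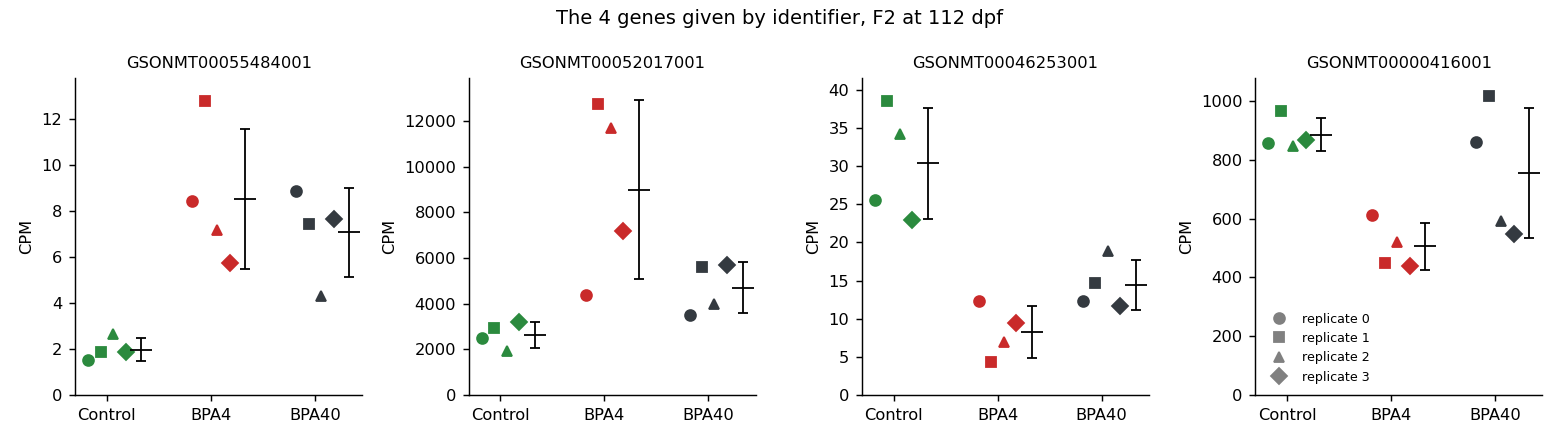
Level of the 4 genes given by identifier in each F2 fish at 112 dpf (CPM, TMM-scaled, linear axes from 0). Symbols are fish by replicate number, and marks with bars are means and SDs (n = 4). In each panel the 4 BPA4 fish lie apart from the 4 Control fish, and in GSONMT00000416001 the BPA40 fish reach from 549 to 1016 CPM, across both.

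The number of genes that leaned, and their side, varied with abundance. When the genes tested were divided into quartiles of mean abundance, the percentage at an unadjusted p under 0.05 was 5.96, 9.27, 12.2 and 13.8% from the least to the most abundant quartile, beside 10.3% over all genes. The part of them that was higher in BPA4 went the other way, at 68.3, 60.1, 53.1 and 51.6%. In the lowest quartile it was 66.7% without BPA4 replicate 1, whereas in the highest it was 41.5% without that fish and 41.1% without Control replicate 1, so the side of the abundant genes turned. With library size alone, that part was 55.9% in the lowest and 30.2% in the highest quartile, so both scalings put the lowest quartile on the higher side and differed on the highest. Under limma-trend on FPKM it was 45.8% in the lowest and 38.7% in the highest, so there the lowest quartile was on the lower side too. Precision also followed abundance, with a median standard error of the log2 fold change of 0.591 in the lowest and 0.296 in the highest quartile. The 95% interval of the fold change lay within 2-fold either way for 5039 genes (30.9%), for 2.65% of the lowest quartile and for 53.6% of the highest. For the other genes, a difference of 2-fold in at least one direction was not excluded at this number of fish.

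Among the 100 most abundant genes, 73 had a positive log2 fold change in BPA4, with a median of 0.24, against 0.02 over all genes. At an unadjusted p under 0.05 were 14 of them, all higher in BPA4. With library size alone, 56 were positive with a median of 0.05, and 10 were higher and 1 lower at that p. When BPA4 replicate 1 was left out, 61 were positive, and 3 were higher at that p. The 100 most abundant genes of each fish took 36.4, 38.5, 38.5 and 41.7% of the fragments in the Control fish and 42.6, 48.9, 44.5 and 40.3% in the BPA4 fish. Replicates 0, 1 and 2 of BPA4 were above every Control fish, and replicate 3 lay inside the Control range. The means were 38.8% ± 2.2 and 44.0% ± 3.7 (SD, n = 4), a difference of 5.27 percentage points (exact two-sided permutation p = 0.0571, adjusted p = 0.229 over 4 measures). Without BPA4 replicate 1 the difference was 3.65 points (exact p = 0.0857). The BPA40 fish had 45.7, 44.6, 40.0 and 43.1%.

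Long genes stood higher in BPA4 relative to short genes. A relative length was taken from the ratio of fragments to FPKM of each gene, and the medians of the shortest and longest quartiles were 0.43 and 1.95 times that of all genes tested. The median log2 fold change was -0.05, -0.02, -0.01 and 0.13 from the shortest to the longest quartile. In the longest quartile 296 genes leaned higher and 90 lower, and in the shortest 202 and 229. Without BPA4 replicate 1 the longest quartile had a median of 0.09 (208 higher and 75 lower) and the shortest -0.04 (151 and 176). With library size alone the medians were -0.04 and -0.21, so the long genes were above the short ones while both medians were under 0. The same order was seen in some other contrasts and the reverse in others. In BPA40 against the same Control fish the medians were 0.00 in the shortest and 0.08 in the longest quartile (144 higher and 91 lower in the longest), and in BPA4 at F1 140 dpf they were -0.08 and 0.05. At F1 365 dpf they were 0.09 and 0.02, and at F2 365 dpf -0.07 and -0.10, so the order was reversed in the yearlings.

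The same contrast was then computed in each fish, a measure added after the split by length had been seen. The median of the longest quartile minus that of the shortest was -0.06, -0.13, -0.13 and -0.13 in the Control fish and 0.05, 0.47, -0.04 and -0.03 in the BPA4 fish, on a log2 scale centred on the mean of the 8 fish. All BPA4 fish were above all Control fish, and the value of replicate 1 was far above the rest. The difference of means was 0.23, and 0.11 without BPA4 replicate 1. No test is given, since the measure was built on a pattern seen in the same fish. The BPA40 fish had 0.08, -0.18, -0.04 and 0.01. Replicates 0, 2 and 3 of BPA40 were thus above every Control fish as well, and replicate 1 was below every Control fish. The integrity of the RNA was not used here, and its part in the difference by length was not tested.

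The spread between fish was wider in BPA4 than in Control. The biological coefficient of variation that edgeR estimates was 48.7% among the BPA4 fish and 34.5% among the Control fish. The BPA4 value was 32.3% without replicate 1, below that of all Control fish. The Control value was in turn 29.9% without its own replicate 1. With the fish that widened each group most left out, BPA4 thus stayed slightly wider. The BPA40 value was 41.9%, and 34.8% without its replicate 1. The mean distance between fish of different lineages was 1.02 and that within lineages 0.97 (difference 0.05, exact one-sided permutation p = 0.0857 over 35 splits). Without BPA4 replicate 1 it was 0.06 (exact one-sided p = 0.0857). BPA4 replicates 0, 2 and 3 lay nearer to the Control fish (mean distances of 0.84, 0.88 and 0.82) than to their own group (1.04, 1.01 and 1.00), which includes replicate 1. Over the 9944 genes that reached 10 fragments in all 12 fish the difference was 0.06 (exact one-sided p = 0.0286, the smallest possible). Leaving out a Control fish gave -0.02 to 0.00, and leaving out BPA4 replicate 0, 2 or 3 gave 0.11 to 0.14. The mean within lineages pools the pairs of both, so each Control fish left out gives more weight to the wider BPA4 pairs, and these values do not single out a fish.

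**Figure D4:**
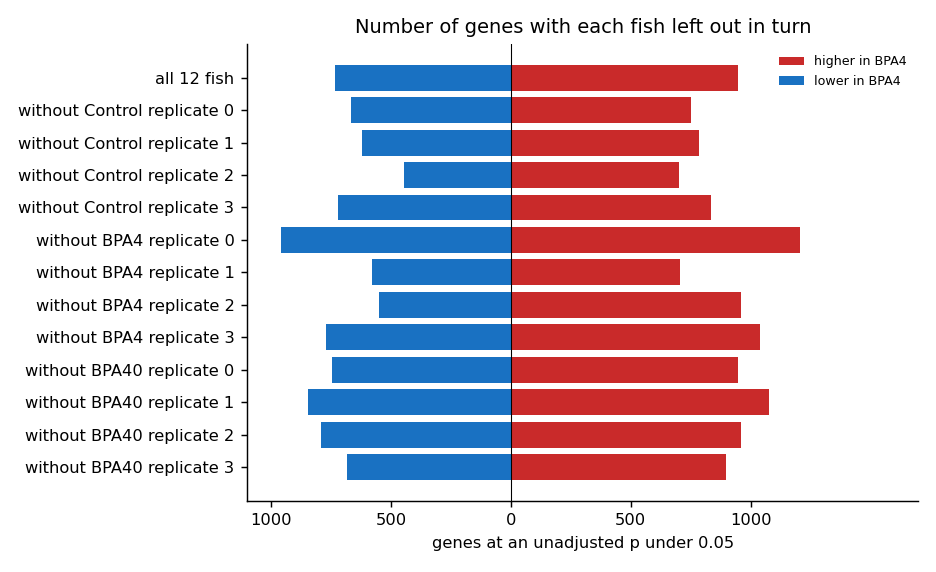
Number of genes at an unadjusted p under 0.05 between BPA4 and Control (edgeR), with all 12 fish of the time point and with the fish left out singly. Red bars to the right are genes higher in BPA4 and blue bars to the left genes lower in BPA4. The total ran from 1148 without Control replicate 2 to 2165 without BPA4 replicate 0, and higher genes outnumbered lower genes in each fit shown.

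The BPA40 fish had the same age as the BPA4 fish and are compared with the same Control fish, but descend from eggs with 40 ng. BPA40 against the same Control fish gave 0 called genes (0%), and 973 (5.96%) at an unadjusted p under 0.05. Since both comparisons use the same 4 Control fish, a likeness between them is no independent result, and the values are only set side by side. The 948 genes that leaned higher in BPA4 had a median log2 fold change of 1.15 there and 0.68 in BPA40, and the 734 lower genes had -0.89 and -0.54. The genes were chosen on the BPA4 values, which alone makes these the larger. Tested directly, BPA4 and BPA40 differed in 0 of 16315 genes (0%) in edgeR, with 454 genes (2.78%) at an unadjusted p under 0.05, 220 (1.35%) higher and 234 (1.43%) lower in BPA4. DESeq2 called 10 genes between the doses, and limma-trend called 0. At this number of fish the juveniles of the lower and higher dose lineages were thus not told apart by edgeR, which does not show that they were alike.

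The BPA4 effect was next compared with that in other fish. Different fish enter each time point, so no control is shared. At F1 140 dpf, the nearest age in the generation that grew from the exposed eggs themselves, BPA4 against Control gave 1341 of 21078 genes (6.36%) at an unadjusted p under 0.05. Of the 15977 genes tested at both, 179 were at that p in both, which is 11% of the 1632 genes of the F2 juveniles, beside 6.80% of all genes tested at both, and 16.5% of the 1087 of the F1 juveniles, beside 10.2%. In 154 of the 179 genes (86.0%) the direction was the same, with 96 higher in BPA4 in both generations and 58 lower in both. From the shortest to the longest length quartile the share was 73.2, 93.2, 82.7 and 95.2%, and over the quartiles of abundance 84.0 to 87.3%. It was 77.3% without BPA4 replicate 1 of the F2 fish (99 of 128 genes). Over all 15977 genes, which are not independent replicates, Pearson's r between the fold changes was 0.15 and Spearman's rho 0.18.

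At F2 365 dpf, the yearlings of the same generation, the picture was the reverse. There BPA4 against Control gave 3646 of 26296 genes (13.9%) at an unadjusted p under 0.05. Of the 16066 genes tested at both ages, 331 were at that p in both, 20.1% of the 1646 juvenile genes, beside 15.8% of all genes tested at both, and 13.0% of the 2543 yearling genes, beside 10.2%. Only 62 of them (18.7%) had the same direction, and 269 had opposite directions. Of these, 193 were higher in BPA4 juveniles and lower in BPA4 yearlings, and 76 were lower in the juveniles and higher in the yearlings. The opposite direction was most common among abundant genes: the share with the same direction was 47.2, 31.3, 9.82 and 8.74% from the least to the most abundant quartile, while it ranged from 14.5 to 26.4% over the length quartiles. Without BPA4 replicate 1 of the juveniles the share was 24.4% (60 of 246 genes), and without Control replicate 0 of the yearlings it was 25.7% (70 of 272). Pearson's r over all 16066 genes was -0.12 and Spearman's rho -0.20.

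With F1 yearlings at 365 dpf the share lay between these values. BPA4 against Control gave 1425 of 24243 genes there (5.88%) at an unadjusted p under 0.05. Of the 15823 genes tested at both, 76 were at that p in both, 4.71% of the 1614 genes of the F2 juveniles, beside 4.22% of all, and 11.4% of the 667 of the F1 yearlings, beside 10.2%. These shares are near the background, and 35 of them (46.1%) had the same direction. Over the alternative settings and with single fish left out, the share ranged from 74.2 to 90.8% with F1 140 dpf, from 11.7 to 29.4% with F2 365 dpf and from 27.3 to 58.0% with F1 365 dpf. The alternative tests, scalings and filters were applied to the F2 juveniles only, beside the main fit of the other time point. Genes of one liver vary together, so these shares describe these fish, and no p is given for them.

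**Figure D5:**
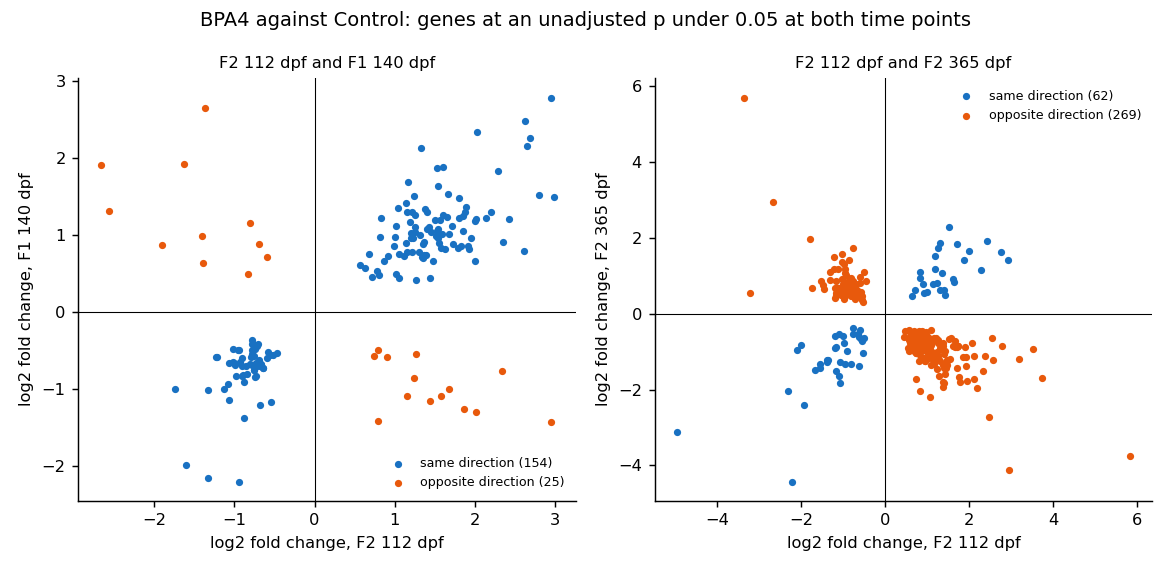
Log2 fold changes of BPA4 against Control (edgeR) in F2 juveniles at 112 dpf (x axis) and in F1 juveniles at 140 dpf or F2 yearlings at 365 dpf (y axis), for genes at an unadjusted p under 0.05 at both time points. Blue points have the same direction and orange points opposite directions. Of 179 genes 154 share their direction with the F1 juveniles, and of 331 genes 62 share it with the F2 yearlings.

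The difference between ages was tested gene by gene as an interaction over 24 fish. The BPA4 effect at F2 112 dpf differed from that at F2 365 dpf in 4 of 25979 genes (0.0154%) at an adjusted p under 0.05 in edgeR, with 3617 genes (13.9%) at an unadjusted p under 0.05. Of the 4 genes, 3 were higher in BPA4 juveniles and lower in BPA4 yearlings, with log2 fold changes of 2.48 and -2.72, of 2.95 and -4.11, and of 1.48 and -1.25 at the 2 ages. The remaining gene, too low to be tested in the juveniles alone, had an interaction of -5.05 and a log2 fold change of 1.21 in the yearlings. The adjusted p was 0.0461 for each, and the juveniles' mean level in the first 3 was 0.897, 1.10 and 16.6 CPM. Leaving out 1 fish gave from 0 to 55 genes. The count was 4 without BPA4 replicate 1, of which 2 were among the 4, and 1 without Control replicate 0 of the yearlings. With any single BPA4 yearling left out it was 0. DESeq2 called 685 genes, of which 2 were among the 4. In edgeR on the 9701 genes that reached 10 fragments in all 24 fish, 211 were called, 1 of them among the 4. The count thus depended on the test and on the filter. For GSONMT00055484001 the interaction was 2.32 on the log2 scale (standard error 0.43, adjusted p = 0.0539 in edgeR), which did not pass the threshold. This gene was chosen for its difference between the same juveniles, which enters the interaction. The choice alone makes the value larger, so it is no separate result.

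The corresponding interaction with F1 140 dpf, which compares generations at 112 and 140 dpf, gave 0 of 21429 genes (0%) in edgeR. At an unadjusted p under 0.05 there were 1268 (5.92%), and DESeq2 called 25. GSONMT00055484001 was at 5.0 ± 0.64 CPM in the F1 Control and 5.24 ± 1.56 CPM in the F1 BPA4 juveniles (SD, n = 4), between the 1.97 CPM of the F2 Control and the 8.52 CPM of the F2 BPA4 juveniles. GSONMT00046253001 was at 17.9 ± 7.6 and 22.8 ± 14.4 CPM in F1 Control and BPA4 juveniles, also between the F2 groups, at 30.4 ± 7.3 CPM in Control and 8.25 ± 3.4 CPM in BPA4 fish. Both genes were chosen because the F2 Control and BPA4 juveniles lay apart, which alone makes an in-between level of other fish likely. The ages and the number of tanks per treatment differ between the generations, and their CPM were scaled separately. The part of each in these levels was not tested.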

How the data were processed

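Liver RNA of 48 fish was sequenced as stranded, paired-end libraries. Per the labels and methods, the authors trimmed and aligned the reads to the rainbow trout genome of Genoscope with Bowtie2 2.2.6 and TopHat2 2.1.0 and counted with Cufflinks and Cuffdiff. For each gene and fish the authors deposited raw fragment counts, used in the tests, and FPKM values, scaled by the authors to gene length and library size and used for relative length and limma-trend. In 8 genes a status of HIDATA, with 0 listed, occurred in at least 1 of the 12 F2 fish at 112 dpf, and these were left out. Another 8 columns of values were not used.

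The 12 fish of the time point were fitted together in R 4.3.3 with edgeR 4.0.16 (filterByExpr, TMM, quasi-likelihood F-test, Benjamini-Hochberg adjustment, threshold 0.05), in place of Cuffdiff, which needs the reads. Interactions used the 24 fish of both time points. DESeq2 1.42.0, limma 3.58.1 (log2(FPKM + 1), mean FPKM of at least 0.1), other scalings, other filters and each fish left out served as alternatives. The scripts were tested on simulated data. Measures per fish were compared with exact permutation tests. Labels do not say whether fish of a group shared parents, so p-values measure the spread between these fish. Intervals cover 95%. The depth of each fish is given with the results.

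Genes given by identifier were, in each direction and among genes whose groups did not overlap, the one with the smallest p and the most abundant one at an unadjusted p under 0.01. No identifier matched a gene name, so lists of liver markers and pathways could not be used, and no sequence is shown. The comparison, the rule and the lists were chosen with earlier results of these data known.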

Additional observations from a re-analysis of the deposited data

Results flagged for a closer look

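Dixon's test was applied to 10 measures in the same 2 groups of 4 fish (20 sets of values), and in 3 sets 1 fish lay far from the other 3. Chance flags about 1 in 20 independent sets, but these sets share fish, and 2 of the 3 flags are the same fish. In the difference between long and short genes, BPA4 replicate 1 was at 0.47 on the log2 scale, against -0.04 to 0.05 in the other BPA4 fish. Among the Control fish, replicate 0 was at -0.061, against -0.13 in each of the others, a gap that is small beside that in BPA4. In the mean distance to its own group, BPA4 replicate 1 was at 1.51, against 1.00 to 1.04 in the others. The same fish had the fewest fragments, 6788947, although its gap in depth was 0.822 of the range and just under the critical value.

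The effect of BPA4 differed between F2 112 dpf and F2 365 dpf in 4 genes by the edgeR interaction test, each with an adjusted p of 0.0461. Of these, 3 had opposite directions at the 2 ages. With any single BPA4 yearling left out, 0 genes were called. Among the 9701 genes that reached 10 fragments in all fish, 211 were called.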

How the results depend on the processing

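Between BPA4 and Control, 50 of 36186 genes were called with no filter on low counts (2904 at an unadjusted p under 0.05). The 8 fish only gave 1, and the HIDATA genes kept gave 3, with 3 more genes tested than in the main comparison. A HIDATA entry is listed as 0 although its fragments were too many, so a call in such a gene does not show a difference in level. DESeq2 called 116, and 56 without BPA4 replicate 1 (an alternative added after seeing the data). With 1 fish left out, edgeR called 0 to 1 genes, the 1 without BPA40 replicate 1 being the gene also called with the 8 fish only, and gave 1148 to 2165 at an unadjusted p under 0.05. The part of these higher in BPA4 was 36.6% with library size alone and 43.1% under limma-trend. Between BPA4 and BPA40, DESeq2 called 10 genes, 13 without BPA4 replicate 1, the absence of a filter gave 5 and the HIDATA genes kept gave 3. Genes whose groups did not overlap numbered 1484 to 2266 with 1 fish left out. For the interaction with F2 365 dpf, 685 genes were called by DESeq2 and 27 with bias-adjusted deviances. Of the 9701 genes that reached 10 fragments in all fish, 211 were called in edgeR. With 1 fish left out, 0 to 55 genes were called. For the interaction with F1 140 dpf, DESeq2 called 25, and 0 to 1 were called with 1 fish left out. The difference in fragments between BPA4 and Control ran from -1625900 to 31073 with 1 fish left out, positive only without BPA4 replicate 1, and that in genes detected -1386 to 256, again positive only without that fish. The difference in distance was 0.061 over genes that reached 10 fragments in all fish and -0.019 to 0.135 with 1 fish left out. Except where a value shows it, the cause was not tested. The 4 genes given by identifier kept their direction in all 92 alternative fits and passed the threshold in 8. They were chosen in the same fish for groups that did not overlap, so a turn of direction was hardly possible.

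With the replicate number as a block, edgeR called 0 genes between BPA4 and Control, with 1227 at an unadjusted p under 0.05, and 0 in the interaction with F2 365 dpf. The numbers pair no samples: deviations of same-numbered Control and BPA4 fish correlated at -0.29 to -0.09, and no fish correlated best with its own number.

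Precision followed abundance: the median standard error of the log2 fold change was 0.591 in the lowest and 0.296 in the highest quartile. The interval of the fold change excluded a 2-fold difference in both directions for 2.65% of the lowest and 53.6% of the highest quartile. The part of depth in these values was not tested.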
